A study of Mus musculus with 193 samples.

Results

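The cytosolic ribosomal protein genes were followed in single mouse testis cells. The 86 members are the genes whose symbol is Rpl or Rps followed by a digit, together with Rplp0, Rplp1, Rplp2 and Rpsa. They were taken from the 19557 gene rows of the deposited table, leaving out 5 rows named as pseudogenes and the 10 Rps6k kinase genes. Of the 86, 46 encode large-subunit proteins, 31 encode small-subunit proteins, and 9 are paralogues or near-namesakes (Rpl3l, Rpl7l1, Rpl10l, Rpl22l1, Rpl36al, Rpl39l, Rps4y2, Rps27l and Rps19bp1). Rps19bp1 encodes a protein that binds Rps19 and is not itself a ribosomal protein. The symbol Rps4y2 corresponds to Rps4l in RefSeq, where it is classed as a transcribed pseudogene on chromosome 6.

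The study sorted testis cells by the green signal of an Id4-eGFP transgene, which marks spermatogonia rich in stem cells, and sequenced the RNA of 193 single cells. The first group was 69 cells of postnatal day 3 (P3) labelled as Rhox10 knockout (KO). The second was 53 wild-type (WT) cells of postnatal day 7 (P7), and the third was 71 WT cells of P3. All 3 groups carried the Id4-eGFP reporter and passed the same kind of sort. Rhox10, on the X chromosome, encodes a homeobox protein of germ cells. The labels do not describe the deleted part, a Cre driver, the strain or the number of animals.

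Letters in the sample titles, which the labels do not explain, divide the cells into 7 sets. KO P3 had 3 sets of 21, 12 and 36 cells (A, B and C), WT P7 had 2 of 12 and 41 (A and B), and WT P3 had 2 of 16 and 55 (A and B). Values by set follow this order throughout. Each group counts as 1 sample, because no animal is named, so no test was possible and no p-value is given. A level is the mean over the cells of a set of log2(RPM + 1), where RPM is a gene's reads per 1000000 reads of the cell's total. A group's level is the unweighted mean of its sets, and a difference is given with its range over all pairs of sets.

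Cells had between 251530 and 10663507 reads in total and between 25424 and 1373776 on genes. Germ cell markers were present in every set: Ddx4 had levels between 6.75 and 8.26, and Dazl between 8.99 and 9.90. The markers of Sertoli cells (Sox9, Wt1, Clu and Amh) were summed as a check on other cells. This sum averaged 110, 2.32 and 3.66 RPM in the KO sets, 0 and 1.02 RPM in the WT P7 sets, and 11.9 and 28.9 RPM in the WT P3 sets. In KO set A, 1 cell with 1602 RPM of these markers and only 12.3 RPM of Ddx4 and Dazl together carried most of the sum, and the other 20 cells averaged 35.6 RPM. WT P3 also held a cell with a high sum, at 574 RPM, beside a median of 1.74 RPM over the WT P3 cells. The sums of markers of Leydig, myoid or stromal, endothelial, white and red blood cells averaged at most 9.56 RPM in any set, that value being the myoid and stromal sum in KO set A. KO set A had the highest average of Sertoli cell markers, and counts and medians for KO P3 are also given without it. Without its 1 cell of 1602 RPM, that average of 35.6 RPM was near the 28.9 RPM of WT P3 set B. Rhox10 itself had levels of 2.48, 2.62 and 0.83 in the KO sets, of 1.53 and 1.52 in WT P7, and of 1.78 and 1.49 in WT P3. It was lower than in WT P3 only in KO set C, so KO here is the label of the cells, and every KO direction below is a direction of that label.

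Ribosomal proteins are made in equal numbers, one of nearly each kind per ribosome, and their messenger RNAs are among the most abundant of growing cells. Most of these messages start with a stretch of C and T bases, the terminal oligopyrimidine (TOP) motif, through which the growth kinase mTOR controls their translation. Several ribosomal protein genes lie on the X chromosome, which is silenced in meiotic male germ cells, and have copies on autosomes that are active in the testis. Many have further processed pseudogenes, so a short read from a ribosomal protein message can match several places in the genome.

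The pairs of paralogue and parent are shown first, because in each of them an autosomal copy and its X-linked parent had very different levels, and because the reads that tell them apart rest on these letters. Each pair is printed over the first 120 coding bases of the parent and the aligned bases of the paralogue, 5′ to 3′, with capitals at the positions where the members of the pair differ. The genes lie, in GRCm38, at chr12:66283379-66284401 (Rpl10l, minus strand), chrX:74270812-74273135 (Rpl10, plus strand), chr16:10170226-10174911 (Rpl39l, plus strand), chrX:37082520-37085402 (Rpl39, minus strand), chr6:148354656-148355598 (Rps4y2, plus strand) and chrX:102184941-102189394 (Rps4x, minus strand). The sequences come from GENCODE transcripts (release M21).
Rpl10l: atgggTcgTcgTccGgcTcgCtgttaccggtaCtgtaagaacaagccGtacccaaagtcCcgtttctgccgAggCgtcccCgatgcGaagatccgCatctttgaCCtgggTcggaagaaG
Rpl10: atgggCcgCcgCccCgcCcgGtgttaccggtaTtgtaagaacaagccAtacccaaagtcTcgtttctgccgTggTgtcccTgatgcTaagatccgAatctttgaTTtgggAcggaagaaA
Rpl39l: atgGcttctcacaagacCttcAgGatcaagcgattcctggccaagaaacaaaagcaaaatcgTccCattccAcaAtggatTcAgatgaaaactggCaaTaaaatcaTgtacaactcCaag
Rpl39: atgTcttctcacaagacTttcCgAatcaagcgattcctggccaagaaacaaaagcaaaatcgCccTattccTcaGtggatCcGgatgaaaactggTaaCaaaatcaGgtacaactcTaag
Rps4y2: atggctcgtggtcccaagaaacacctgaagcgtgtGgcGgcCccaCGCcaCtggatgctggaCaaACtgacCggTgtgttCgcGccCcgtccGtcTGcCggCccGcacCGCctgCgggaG
Rps4x: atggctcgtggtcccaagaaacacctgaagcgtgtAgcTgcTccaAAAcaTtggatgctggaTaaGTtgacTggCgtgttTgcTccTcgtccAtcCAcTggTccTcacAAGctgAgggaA

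Rpl10l and Rpl10 differed at 18 of these 120 bases, Rpl39l and Rpl39 at 14, and Rps4y2 and Rps4x at 26. Over the parents' whole coding sequences of 645, 156 and 792 bases, the pairs were 84.8%, 85.3% and 79.4% identical. The differences lie close enough together for many reads to be told apart within a pair, but pseudogenes add to the copies. For each member, every 50-base window of its transcript was searched in the transcripts of all other genes on both strands. The share of windows found in no other gene had a median of 47.3% over the members and ran from 1.35% (Rps27) to 100%. Within the coding sequence the median was only 9.65%, and 45 of the 85 members with a coding sequence had under 10% of such windows. Rpl39l had 100% and Rpl10l 92.4% over the transcript, against 83.5% for Rpl39 and 7.87% for Rpl10. How reads with several matches were counted is not given in the sources used here, so the level of a member with many copies is uncertain.

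The members were not listed at equal levels. Per kb of transcript, mean levels ran from 0.593 RPM per kb for Rpl26 to 228 for Rpl4, with a median of 5.85. Rpl4, which lines the exit tunnel of the large subunit, was the highest, and Rpl8 with 180 RPM per kb and Rps14 with 111 were also among the first 5. Rpl8 sits close to the site of peptide bond formation, and Rps14 on the platform of the small subunit. The lowest after Rpl26 were Rpl30 with 0.615, Rps12 with 0.728, Rpl11 with 0.788 and Rpl21 with 0.8501 RPM per kb. The 5 members with the most reads held 52.1% of all member reads, and the first 10 held 66.7%. Against this spread, 30 members had reads in all 193 cells, 70 in at least 90% of the cells, and 2 (Rps27 and Rpl3l) in fewer than 50%.

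Levels and sequence uniqueness moved together. The 40 members with at least 50% of windows found in no other gene had a median of 9.34 RPM per kb, against 3.39 for the 46 others. Across the 85 members with a coding sequence, the Pearson correlation of log2 RPM per kb with the unique share of coding windows was 0.59. With the windows of whole transcripts it was 0.43 over 86 members (0.37 with 36-base and 0.52 with 100-base windows). Members share libraries and families of copies, so these correlations only describe the table, and how far copies bear on the listed levels was not tested. Rpl3l, the muscle form of Rpl3, was unique throughout and still had only 0.953 RPM per kb, with no reads in most cells. The transcripts used for Rps15a and Rps20 are long, with 5179 and 3706 bases, which lowers their level per kb.

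**Figure D1:**
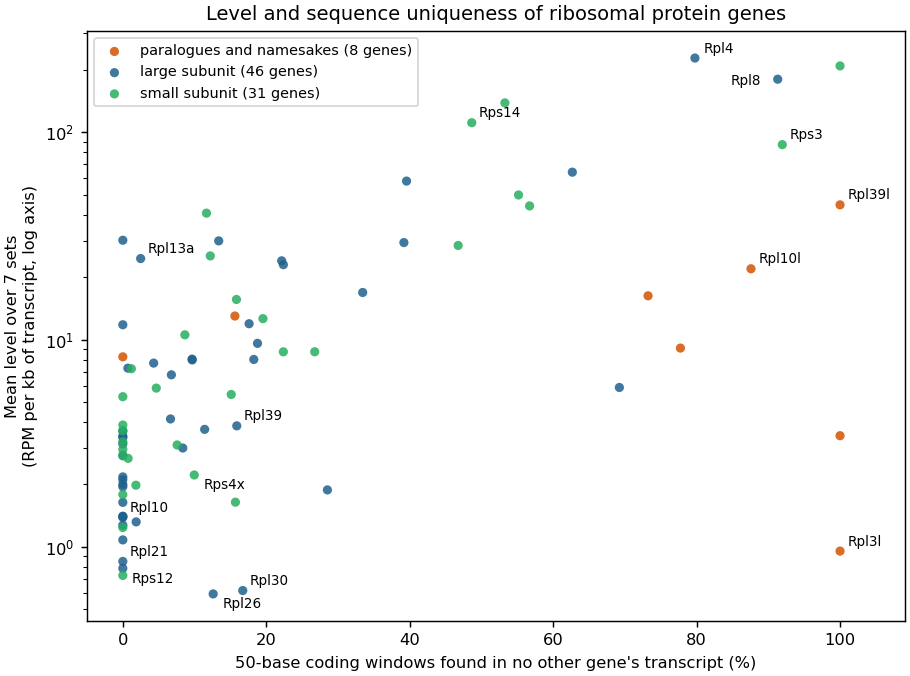
Mean level over 7 sets in RPM per kb of transcript (log axis) against the percent of 50-base coding windows found in no other gene's transcript, 1 point per gene for the 85 members with a coding sequence. Rpl4 and Rpl8 lie at the upper right, Rpl13a and Rpl41 lie highest among those under 10% uniqueness, and Rpl3l is unique but low.

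Several paralogues were listed above their parents. Rpl10l, an intronless copy of Rpl10 that is needed for meiotic divisions in male mice, had 21.9 RPM per kb against 1.39 for X-linked Rpl10, a ratio of 15.8. By set, Rpl10l had 13.6, 24.5 and 27.03 RPM per kb in KO P3, 21.5 and 23.2 in WT P7, and 20.7 and 23.1 in WT P3. Rpl10 had at most 2.21 RPM per kb in any set, so the pair did not overlap. Rpl10l was above Rpl10 in 187 of 193 cells. With 7.87% of its windows unique, Rpl10 is among the members whose level is least certain.

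Rpl39l, whose product replaces Rpl39 in ribosomes of mouse spermatogenic cells, had 44.6 RPM per kb against 3.83 for Rpl39. Rpl39l was the higher of the pair in 192 of 193 cells, and here most windows of both transcripts were unique. Over cells, Rpl39l had a lowest, median and highest value of 0, 37.7 and 82.7 RPM in KO P3, of 6.45, 34.6 and 61.5 RPM in WT P7, and of 7.61, 28.5 and 67.9 RPM in WT P3. The 3 groups overlapped almost wholly. Rpl39 had medians of 2.52 RPM in KO P3, 0.930 in WT P7 and 2.44 in WT P3. It stayed under the level floor of 2 used below, at 0.97 in WT P7 against 1.76 in WT P3 (difference -0.79, pairs -0.92 to -0.67).

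Rps4y2 had 39.4 RPM per kb against 2.22 for Rps4x, and was higher in 192 of 193 cells. Only 27.8% of the windows of Rps4x were unique, against 85.1% for Rps4y2, so the level of Rps4x is among the uncertain ones. Rps4y2 showed a wide spread between sets, with 17.1, 33.1 and 44.3 RPM per kb in KO P3, 53.6 and 66.7 in WT P7, and 31.9 and 28.9 in WT P3. Both WT P7 sets were above every P3 set. Rps4x was highest in KO set A, at 3.96 RPM per kb, and lowest in WT P7 set B, at 0.801.

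The other pairs were less uniform. Rps27l, a copy of Rps27 that p53 can induce, had 16.3 RPM per kb against 1.24 for Rps27, but only 1.35% of the windows of Rps27 were unique. Rpl36al had 8.25 RPM per kb against 2.10 for X-linked Rpl36a. Only 36.7% of the windows of Rpl36al and 14.5% of those of Rpl36a were unique, and no coding window of either was. Rpl22l1 had 12.98 RPM per kb against 5.87 for Rpl22 and was the higher per kb in 155 of 193 cells. This order rests on length, since the transcripts used have 552 and 2051 bases. In summed reads Rpl22l1 was the lower, with 2559 against 4576 in KO P3, 1090 against 2255 in WT P7 and 1975 against 3604 in WT P3. The lead of Rpl22l1 per kb was widest in KO set A, with 20.2 against 4.03 RPM per kb, and nearly closed in KO set C, with 10.46 against 9.06. Rpl7l1 and Rpl3l were below their parents, with 9.10 against 22.97 and 0.953 against 7.70 RPM per kb.

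**Figure D2:**
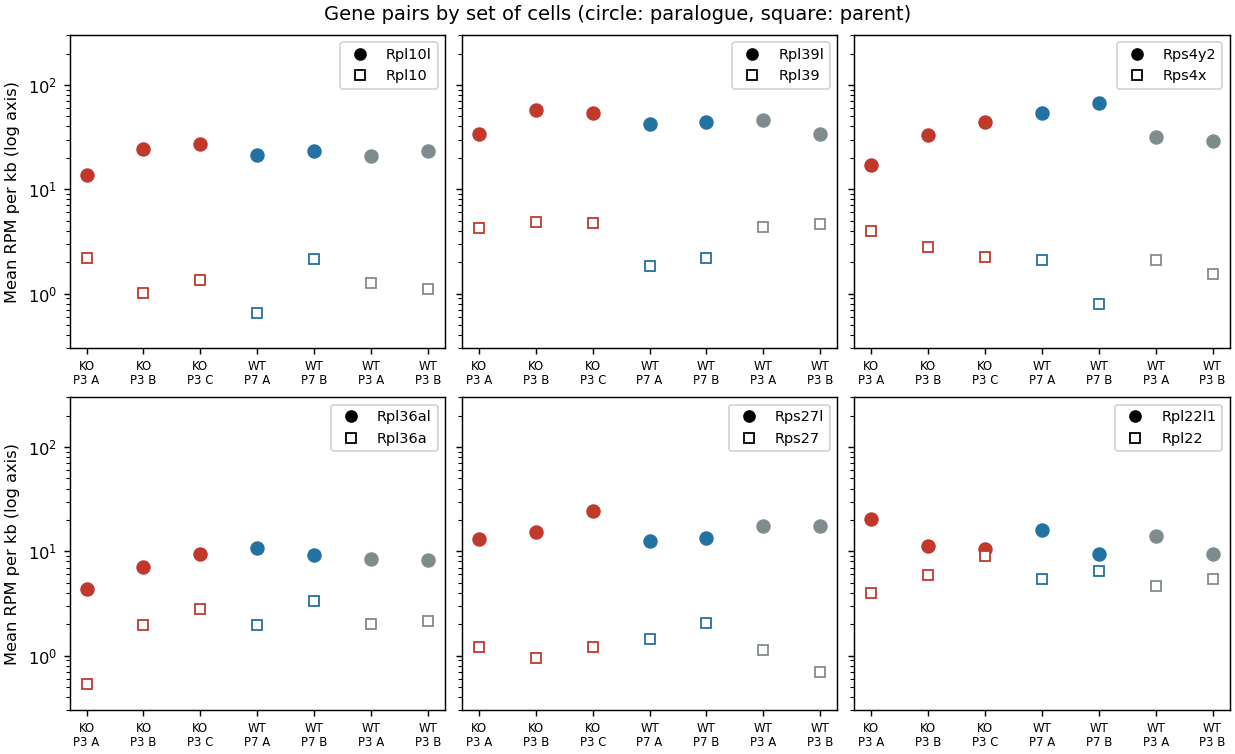
Mean RPM per kb (log axis) of 6 paralogues (filled circles) and their parents (open squares) in the 3 KO P3 sets (red), the 2 WT P7 sets (blue) and the 2 WT P3 sets (grey). Rpl10l, Rpl39l, Rps4y2, Rpl36al and Rps27l lie above their parents in all 7 sets, and Rpl22l1 comes close to Rpl22 in KO set C.

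KO set A had the lowest value of the 7 sets for Rpl10l, Rps4y2 and Rpl36al, and for Rpl39l a value as low as WT P3 set B (33.996 and 34.1 RPM per kb). It was also the set with the highest sum of Sertoli cell markers, and the part of such cells in these values was not tested. Without its 1 cell of 1602 RPM, the level of KO set A was 3.75 for Rpl10l (3.60 with it), 3.85 for Rps4y2 (3.77), 1.48 for Rpl36al (1.54) and 4.77 for Rpl39l (4.55). The levels of Rpl7l1 were 2.72, 4.46 and 4.73 in the KO sets, against 3.98 and 4.04 in the WT P3 sets. Its difference between KO P3 and WT P3 was -0.04 with all sets (pairs -1.31 to 0.74) and 0.58 without KO set A (pairs 0.42 to 0.74). For Rpl39l the values were 0.20 (pairs -0.60 to 0.80) and, without KO set A, 0.50 (pairs 0.20 to 0.80). Without that set both were called higher by the rule given further on.

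Rpl10l, Rpl7l1 and Rpl39l were also the members that followed the others least from cell to cell. For the 20 members whose level averaged 4 or more, each cell's level was set against the mean of the other 19 after removing the mean of its set, over 193 cells. The median correlation was 0.70. Rplp0, the base of the ribosomal stalk that recruits translation factors, had the highest, at 0.80. Rpl10l had the lowest, at 0.25, followed by Rpl7l1 with 0.27 and Rpl39l with 0.31, while Rps4y2 had 0.55. All values of a cell share its library, depth and scale, so only the order of the members is described.

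The share of gene reads that fell on the members does not depend on the scale of a cell. The KO sets averaged 1.19% ± 0.25 (SD between cells, n = 21), 1.17% ± 0.16 (n = 12) and 1.34% ± 0.21 (n = 36). The WT P7 sets averaged 1.51% ± 0.22 (n = 12) and 1.45% ± 0.20 (n = 41). The WT P3 sets averaged 1.14% ± 0.20 (n = 16) and 1.24% ± 0.28 (n = 55). Both WT P7 sets were above all 5 P3 sets, and the KO sets overlapped the WT P3 sets. The median of gene reads per cell was 608841 in KO P3, 507865 in WT P7 and 514921 in WT P3. The sum of Sertoli cell markers was also lower in WT P7 than in WT P3, and its part in the share was not tested.

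The share was thus 1.48% in WT P7 and 1.19% in WT P3, a difference of 0.286 percentage points (pairs 0.206 to 0.365). The 77 members other than the paralogues carried it, with 1.37% in WT P7 and 1.08% in WT P3. The paralogues and near-namesakes held 0.110% in WT P7 and 0.109% in WT P3. The 76 mitochondrial ribosomal protein genes, a separate set of nuclear genes, held 0.698% in WT P7 and 0.647% in WT P3 (difference 0.051 points, pairs 0.022 to 0.080). Between KO P3 and WT P3, at 1.23% and 1.19%, the difference for the members was 0.040 points and its sign varied (pairs -0.071 to 0.194). The mitochondrial genes held 0.604% in KO P3 and 0.647% in WT P3 (difference -0.043, pairs -0.069 to -0.012).

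**Figure D3:**
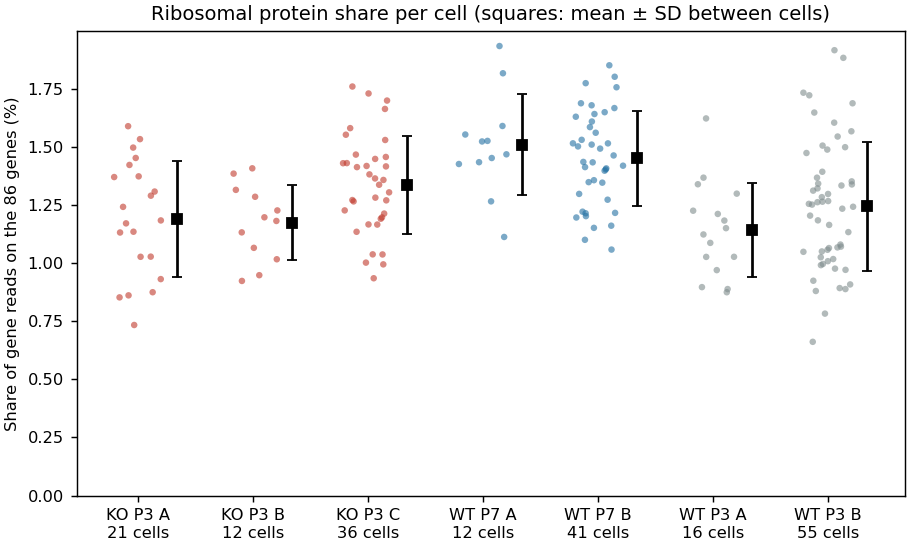
Percent of gene reads on the 86 members, 1 point per cell, for the 7 sets; squares and bars give the mean and SD between cells of a set. The WT P7 sets average 1.51% and 1.45%, and the P3 sets between 1.14% and 1.34%.

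Within the member reads, the balance of the subunits differed in the KO sets. Small-subunit genes held 38.95% ± 5.0 (SD between cells), 43.4% ± 2.2 and 45.95% ± 2.7 of the reads of the 77 canonical members in the KO sets. They held 47.4% ± 3.7 and 46.99% ± 2.6 in WT P7, and 46.96% ± 3.3 and 46.9% ± 2.4 in WT P3. All 3 KO sets were below all 4 WT sets, although KO set C was within 1 SD of them. Rpl4 alone made up 25.2%, 20.8% and 18.1% of member reads in the KO sets, 20.03% and 19.3% in WT P7, and 17.1% and 17.2% in WT P3. Without Rpl4 the small-subunit share was 53.2% ± 3.9, 56.4% ± 1.8 and 57.4% ± 2.6 in the KO sets. It was 60.4% ± 2.3 and 59.4% ± 2.5 in WT P7, and 57.9% ± 2.8 and 57.8% ± 2.0 in WT P3. All 3 KO sets were again below all 4 WT sets, although KO set C was within 1 SD of both WT P3 sets. Set against the values with Rpl4, the gap of KO set C to WT P3 was smaller and its gap to WT P7 larger. These shares were examined after the values were seen. KO set A, the set lowest in both, was the one with 110 RPM of Sertoli cell markers. Without its cell of 1602 RPM the small-subunit share of the set was 38.3%.

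For differences of single genes, a member was read only if its level averaged at least 2 over the sets compared. It was called higher or lower if the difference was at least 0.5 in size and had the same sign in every pair of sets. In KO P3 against WT P3, 49 of the 86 members reached the floor. The median difference was 0.18, beside 0.14 over the 4932 genes that reached it. Of the 49, 6 were called higher, or 12.2%, where 11.3% of all genes were, and 0 were called lower, where 2.66% of all genes were. The members' count of calls is thus close to the background. Without regard to size, 22 of the 49, or 44.9%, were higher in all 6 pairs on the deposited scale, where 17.6% of all genes were. In all pairs 0 were lower, where 4.68% of all genes were. The other 27 overlapped.

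The 6 called higher were Rpl13a, Rpl4, Rps2, Rpl32, Rpl7 and Rpl8, all but Rps2 of the large subunit. Rpl4 had levels of 8.49 ± 0.66, 8.41 ± 0.35 and 8.37 ± 0.36 (SD between cells) in KO P3, against 7.79 ± 0.62 and 7.80 ± 0.43 in WT P3. Its difference of 0.63 (pairs 0.57 to 0.70) was of the size of the spread between cells of 1 set, and the set levels did not overlap. Rpl13a, known in human monocytes as a regulator of translation outside the ribosome, had 4.65, 4.38 and 4.42 in KO P3, against 3.74 and 3.83 in WT P3. Every KO set was above both WT P3 sets, and the difference was 0.70 (pairs 0.55 to 0.91).

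Rps2, at the messenger RNA entry of the small subunit, had 3.49, 3.65 and 4.33 in KO P3, against 3.07 and 3.38 in WT P3, a difference of 0.60 (pairs 0.11 to 1.26). KO set A was only just above WT P3 set B. Rpl32, Rpl7 and Rpl8 differed by 0.54, 0.51 and 0.50 with pairs of 0.30 to 0.76, 0.43 to 0.59 and 0.35 to 0.65. The smallest differences among members with one sign in all pairs were those of Rps7 (0.05), Rps21 (0.17), Rpl6 (0.18), Rplp0 (0.25), Rps26 (0.25) and Rps18 (0.29), all positive and none called.

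Calls of this kind depend on the scale of a cell. The reads on genes made up 13.8% of the total in KO P3, 15.4% in WT P7 and 11.1% in WT P3, averaged over cells. Values were therefore also rescaled by the median ratio over 3778 genes, none of them members, that had reads in at least 90% of the cells. This moved the median of all genes by more than 0.1, to -0.01 in KO P3 against WT P3 and, in the other comparison, from 0.25 to -0.13. On the rescaled values the members' median was 0.02 in KO P3 against WT P3. Only Rpl13a was then called higher (0.54, pairs 0.19 to 1.11), and Rpl38 was called lower (-0.53, pairs -0.84 to -0.23). Over all genes 5.64% were called higher and 7.11% lower on these values. The deposited pattern of 22 members higher and 0 lower in all pairs did not hold when rescaled. Rpl29 (-0.47, pairs -0.70 to -0.23), Rps24 (-0.19, pairs -0.29 to -0.10) and Rplp2 (-0.25, pairs -0.43 to -0.05) were among those then lower in all pairs. Rpl13a, Rpsa (0.29, pairs 0.18 to 0.39) and Rpl23 (0.24, pairs 0.15 to 0.35) were among those still higher. The 6 members named above for the smallest differences all had pairs on both sides of 0 when rescaled, and Rps7 turned to -0.09. Rpl38, which in mice is needed for axial skeletal patterning, had levels of 1.97, 2.23 and 2.43 in KO P3, against 2.41 and 2.76 in WT P3 on the deposited scale, where KO set C and WT P3 set A overlapped.

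Without KO set A the members' median was 0.33, beside 0.31 over all genes, and 13 of the 50 members then at the floor were called higher, where 27.97% of all genes were. Among the 7 added were Rpl23, Rpl3, Rpl39l, Rpl7l1, Rps14 and Rpsa. Without KO set C, 2 were called higher, a count given without its share over all genes and therefore not read against the background. None of the 7 paralogues that reached the floor had one sign in all pairs with all sets, and their median difference was -0.04.

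WT P7 against WT P3 moved the members further. Of the 51 members at the floor, the median difference was 0.58, beside 0.25 over 4895 genes. In all 4 pairs 40 were higher, or 78.4%, where 42% of all genes were, and 4 were lower, or 7.84%, where 13.1% of all genes were. Of the 51, 28 were called higher, or 54.9%, where 30.9% of all genes were, and 2 were called lower, or 3.92%, where 8.19% of all genes were. On the rescaled values the members' median was 0.16 beside -0.13 over all genes, with 10 called higher and 5 lower. The rescaled shares over all genes were 11.7% higher and 22.3% lower.

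Both WT P7 and KO P3 were set against the same WT P3 cells, so the comparisons are not independent and their values are only given side by side. The largest difference at P7 was again that of Rpl13a, with levels of 5.51 ± 0.40 and 5.21 ± 0.43 in WT P7, against 3.74 ± 0.63 and 3.83 ± 0.53 in WT P3. Over cells, its lowest, median and highest values were 21.6, 38.5 and 70.8 RPM in WT P7, against 3.89, 13.4 and 33.3 RPM in WT P3. The lowest WT P7 cell was thus above the WT P3 median. The difference was 1.58 (pairs 1.38 to 1.77) on the deposited scale and 1.14 (pairs 0.87 to 1.41) rescaled. Only 2.49% of its coding windows were unique, against 42.6% of its whole transcript, so this level is among the uncertain ones.

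Rpl8 (GRCm38 chr15:76904078-76906314, plus strand), for which 92.1% of the windows were unique, had the same direction. Its levels were 7.69 and 7.63 in WT P7, against 6.62 in both WT P3 sets, so the groups did not overlap. The difference was 1.03 (pairs 1.00 to 1.07) and 0.57 (pairs 0.46 to 0.68) rescaled. Rpl4, the most abundant member, had 8.79 and 8.71 in WT P7, against 7.79 and 7.80 in WT P3, a difference of 0.96 (pairs 0.91 to 1.00) that became 0.49 rescaled and so missed the call there.

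Rps2 differed by 1.31, Rpl3 by 1.27 and Rpl7a by 1.09 on the deposited scale. Rpl3 shapes the centre of peptide bond formation. These stayed called when rescaled, at 0.89, 0.88 and 0.75, as did Rps16 and Rps15. Of these 5, only Rps15 and Rps16 had at least 50% unique windows over the transcript (68.5% and 58.4%), and in Rps16 no coding window was unique.

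The subunits differed in degree. Small-subunit genes had a median difference of 0.80 and 14 of 20 called higher (70%), large-subunit genes 0.51 and 12 of 24 (50%), and paralogues and near-namesakes 0.16 and 2 of 7 (28.6%), beside 30.9% of all genes. Rescaled, the medians were 0.36, 0.07 and -0.20, in the same order. Called higher were then 30%, 16.7% and 0%, beside 11.7% of all genes. Called lower were 5%, 8.33% and 28.6%, beside 22.3% of all genes. The 2 paralogues called higher on the deposited scale were Rps4y2 (0.84, pairs 0.51 to 1.18) and Rpl7l1 (0.63, pairs 0.45 to 0.81), neither of them called when rescaled. In the stalk, Rplp0 and Rplp2 were called higher (0.79 and 0.69, and not called at 0.33 and 0.26 rescaled), but Rplp1 was not, at -0.12 (pairs -0.23 to -0.01). Rpsa, the laminin receptor precursor on the small subunit, had a difference of 0.18 (pairs 0.09 to 0.27) that turned to -0.24 (pairs -0.33 to -0.15) rescaled. Rpl5, which carries the smallest large-subunit RNA into the ribosome together with Rpl11, had 0.28 (pairs 0.05 to 0.50) and, rescaled, -0.08 (pairs -0.32 to 0.15), and Rpl11 was under the floor in both comparisons. The X-linked members Rpl10, Rpl36a, Rpl39 and Rps4x were all under the floor as well, with differences of -0.02, 0.13, -0.79 and -0.22 in WT P7 against WT P3, and of 0.19, -0.13, 0.01 and 0.53 in KO P3 against WT P3. Rps19bp1 was also under the floor (0.27 and 0.48), and Rps19 was called higher in WT P7 (0.53), but not rescaled (0.13).

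Rpl37 ran against the rest. Its levels were 1.74 ± 0.52 and 1.92 ± 0.52 in WT P7, against 3.15 ± 0.60 and 3.08 ± 0.62 in WT P3. The KO sets had 3.70, 3.37 and 3.49. Over cells, its lowest, median and highest values were 0.380, 2.91 and 7.00 RPM in WT P7, against 3.08, 7.43 and 21.5 RPM in WT P3, so the WT P7 median lay below the lowest WT P3 cell. The difference between WT P7 and WT P3 was -1.28 (pairs -1.41 to -1.16) and -1.63 (pairs -1.70 to -1.57) rescaled. In reads summed over the cells of a group, Rpl37 had 512 of 26902408 gene reads in WT P7, or 19.03 RPM of gene reads (exact Poisson 95% interval 17.4 to 20.8, counting error only) and 66.3 in WT P3 (63.8 to 69.0).

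Rps15a was the other member called lower in WT P7. It had 2.69 and 2.51 in WT P7, against 3.22 and 3.14 in WT P3, a difference of -0.58 (pairs -0.71 to -0.45) and -0.97 rescaled. Rps27l had -0.49 (pairs -0.56 to -0.42) and missed the size by a little, and rescaled it was called lower at -0.89, together with Rpl10l (-0.62) and Rplp1 (-0.54). Rpl37 and Rps15a had 68.7% and 93.6% unique windows over the transcript, but only 18.8% and 15.7% in the coding part.

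**Figure D4:**
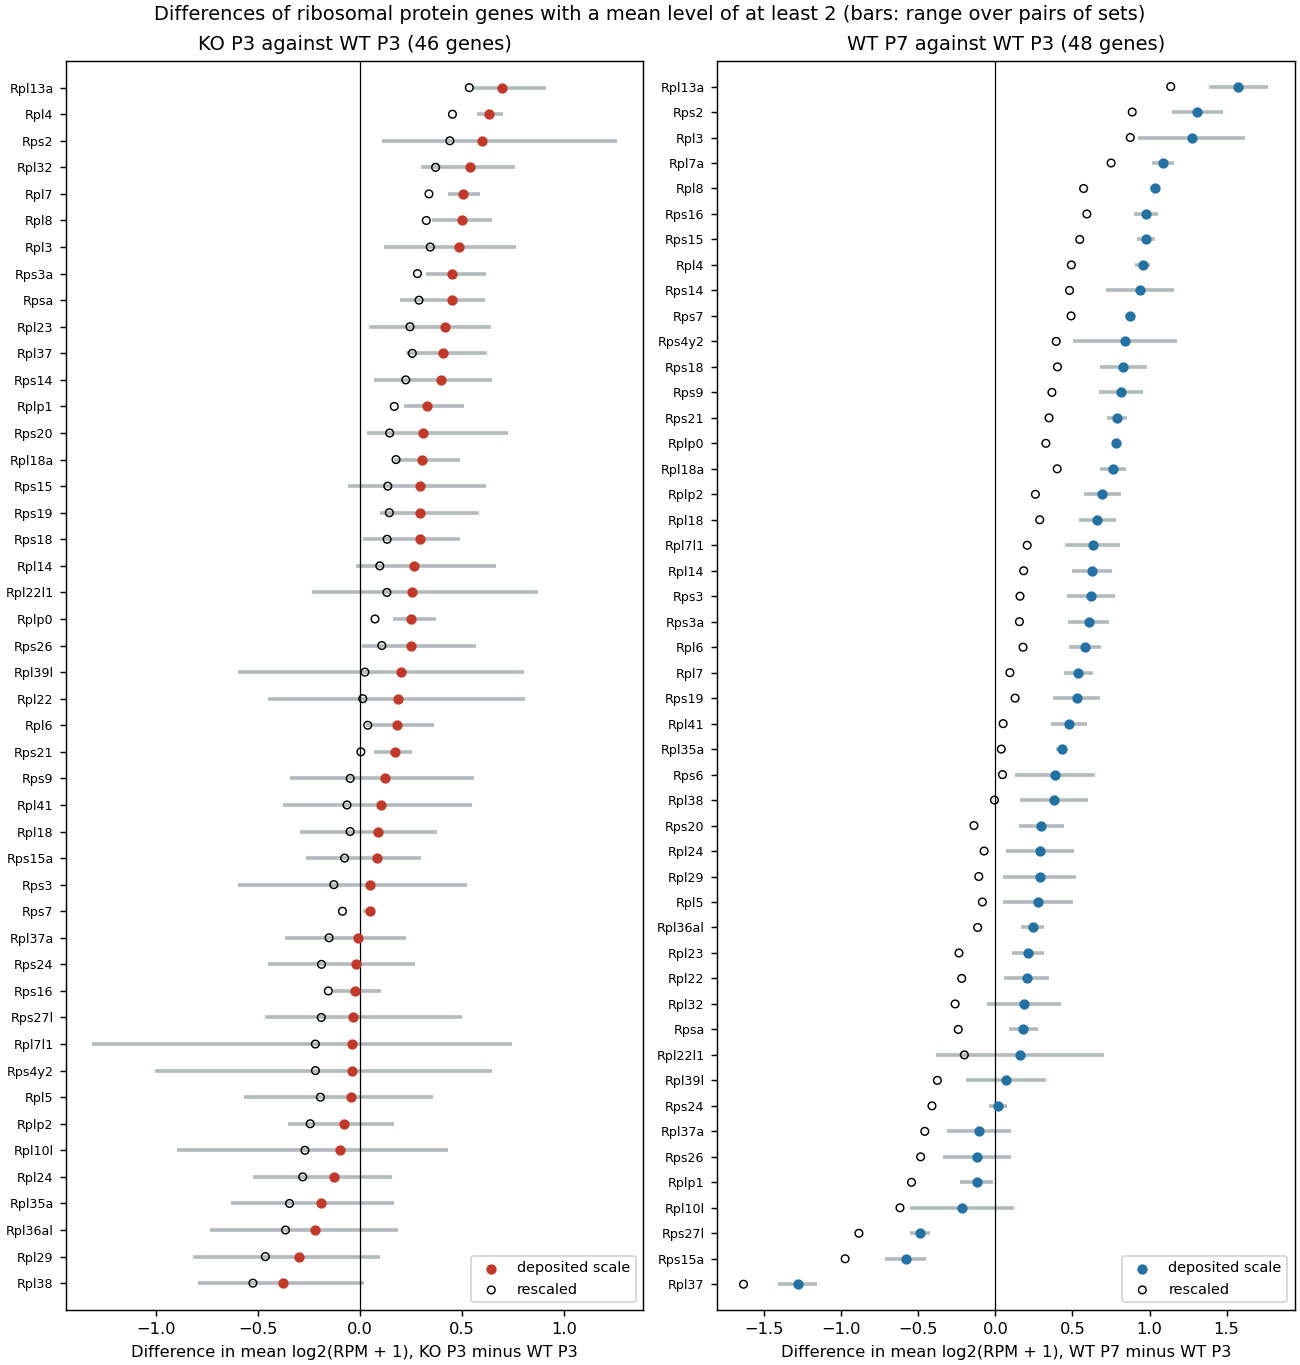
Difference in mean log2(RPM + 1) for members at the level floor, KO P3 minus WT P3 (46 genes shown, left) and WT P7 minus WT P3 (48 genes shown, right). Filled points are on the deposited scale with grey bars for the range over pairs of sets, and open points are rescaled; at P7 most members lie right of 0 while Rpl37, Rps15a and Rps27l lie left of it.

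**Figure D5:**
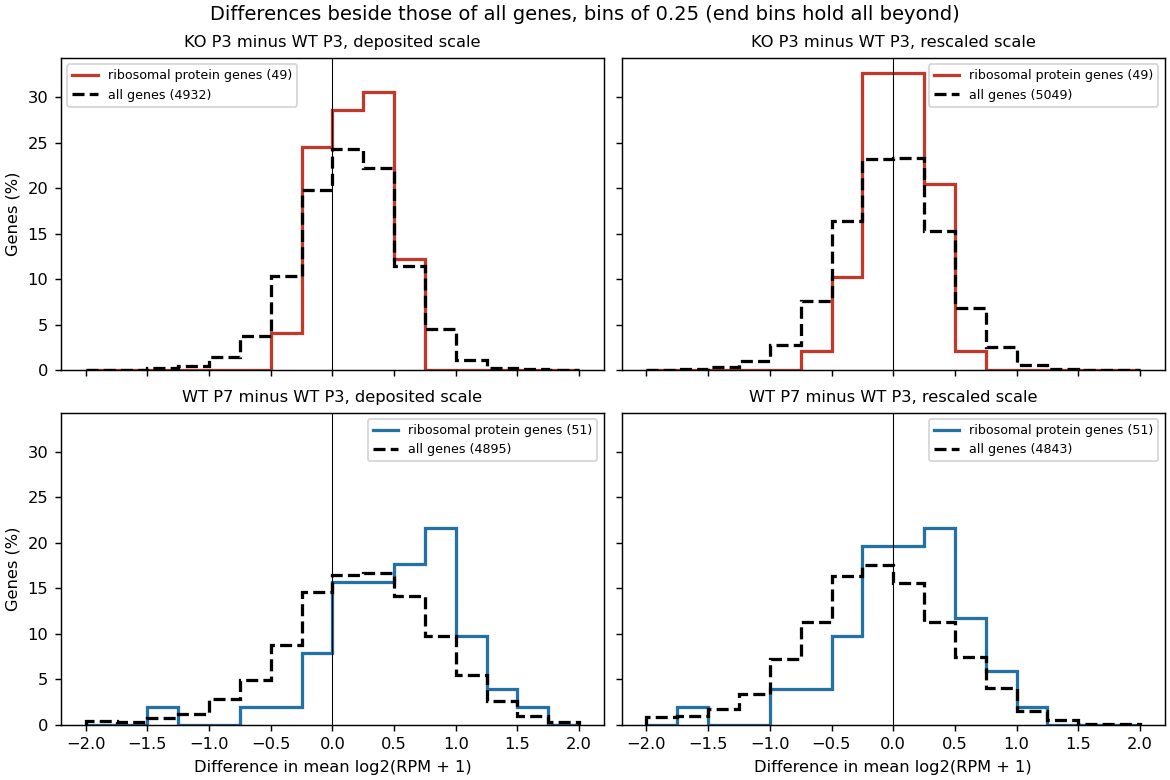
Percent of genes in bins of 0.25 of the difference in mean log2(RPM + 1), for the members (coloured lines) and all genes at the floor (dashed lines), KO P3 minus WT P3 (top) and WT P7 minus WT P3 (bottom), on the deposited (left) and rescaled (right) scale. The members' curve lies close to that of all genes in the top row and to the right of it in the bottom row.

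Genes that work with the members were read from lists. The list of other TOP messages held 20 genes, among them elongation and initiation factors. In KO P3 against WT P3, 17 of these were at the floor with a median difference of 0.14. Of the 17, 3 were called higher, or 17.6%, beside 11.3% of all genes. These were Eef2, which moves the ribosome along the message (0.99, pairs 0.80 to 1.23), Pabpc1, the poly(A)-binding protein (0.77, pairs 0.58 to 1.08), and Eef1a1, which delivers aminoacyl-tRNA (0.59, pairs 0.24 to 0.97). Rescaled, Eef2 (0.81) and Pabpc1 (0.60) were called and Eef1a1 (0.41) was not. Eif3f, a subunit of an initiation factor, had 0.67 with 1 pair below 0, and was called without KO set A (0.96, pairs 0.74 to 1.19) and rescaled (0.50).

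The lowest of the list in KO P3 were Fau (-0.48, lower in all pairs), Npm1 (-0.38) and Nap1l1 (-0.20), none of them called. These values depended on KO set A, without which they were -0.21, -0.10 and 0.09. Rescaled with all sets, Fau (-0.63) and Npm1 (-0.56) were called lower. Without KO set A, 5 of 17 were called higher, or 29.4%, beside 27.97% of all genes, and the median was 0.38.

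In WT P7 against WT P3, 18 of the list were at the floor with a median of 0.60, and 10 were called higher, or 55.6%, and none lower, beside 30.9% and 8.19% of all genes. Eef2 had levels of 7.20 and 6.89 in WT P7, against 5.57 and 5.38 in WT P3, a difference of 1.57 (pairs 1.31 to 1.82). Eif3f and Eef1a1 followed with 1.33 and 1.13. All 3 remained called when rescaled, among 5 higher and 1 lower, or 27.8% and 5.56%, beside 11.7% and 22.3% of all genes. Npm1, a nucleolar protein of ribosome assembly, was lower in all pairs by less than 0.5 (-0.40, pairs -0.73 to -0.08) and was called lower rescaled (-0.87). Naca (0.14) and Gas5 (0.15) turned to -0.30 and -0.29 rescaled.

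The list of ribosome assembly factors held 25 genes. In KO P3 against WT P3, 24 were at the floor with a median of 0.00, and 1 was called higher and 1 lower, or 4.17% each, beside 11.3% and 2.66% of all genes. Grwd1, which escorts new Rpl3 to the nucleolus, was called higher (0.58, lowest pair 0.0005, highest 1.07), but not rescaled (0.42). Riok2, a kinase of late small-subunit maturation, was called lower (-0.60, pairs -0.99 to -0.21). It missed the size without KO set A (-0.49, pairs -0.76 to -0.21) and was called rescaled (-0.76). Sbds, which helps to free new large subunits, had -0.84 with 1 pair above 0 (pairs -1.46 to 0.04), and was called lower rescaled (-1.03). Nip7 had -0.52, and -0.15 without KO set A. Bccip had 0.49 and Aatf 0.32, neither called. Without KO set A the median of the assembly factors was 0.23, with 3 of 25 called higher, or 12%, beside 27.97% of all genes.

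In WT P7 against WT P3 all 25 assembly factors were at the floor with a median of 0.38. Of the 25, 7 were called higher, or 28%, and none lower, beside 30.9% and 8.19% of all genes. Rescaled, 2 were higher and 6 lower, or 8% and 24%, beside 11.7% and 22.3% of all genes. The 2 were Mak16 (1.10, pairs 0.52 to 1.69, and 0.70 rescaled) and Eif6, which keeps new large subunits from joining small ones too early (1.00, pairs 0.82 to 1.19, and 0.59 rescaled). Nob1, a nuclease of small-subunit RNA, was called at 0.80 but not rescaled (0.41). The lowest were Eftud1 (-0.66), Ltv1 (-0.35) and Pes1 (-0.26), whose pairs lay on both sides of 0. These 3 were among those called lower when rescaled.

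The mitochondrial ribosomal protein genes had 61 members at the floor in each comparison. In KO P3 against WT P3 their median was 0.06 with 8 called higher, or 13.1%, beside 11.3% of all genes. Without KO set A it was 0.28 with 11 called higher, or 18.03%, beside 27.97% of all genes. In WT P7 against WT P3 it was 0.38 with 23 called higher and 1 lower, or 37.7% and 1.64%, beside 30.9% and 8.19% of all genes. Rescaled, 3 were higher and 3 lower in KO P3, or 4.76% each, beside 5.64% and 7.11% of all genes. In WT P7, 6 were higher and 8 lower when rescaled, or 10% and 13.3%, beside 11.7% and 22.3% of all genes.

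The bases on both sides of the annotated start were examined for the pyrimidine stretch of TOP messages. A run that begins with a C and goes on with bases that are each C or T, at least 8 bases long in all, was searched on the strand of the gene and within 30 bases of the RefSeq start on either side. It was present in 34 of the 65 members with a promoter sequence, or 52.3%. Over all 27025 genes with a promoter sequence it was present in 20.6%. It was found in 31 of 57 canonical members and in 3 of 8 paralogues and near-namesakes. The stretches of Rpl13a and Rpl4, called higher in both comparisons, and of Rpl37, called lower in WT P7, are printed from RefSeq (GRCm38.p6), with the longest run that begins with a C (the first of equal length) in capitals. They lie at chr7:45128722-45128751 (Rpl13a, minus strand), chr9:64173362-64173391 (Rpl4, plus strand) and chr15:5116578-5116607 (Rpl37, plus strand).
Rpl13a: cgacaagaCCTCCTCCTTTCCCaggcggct
Rpl4: tgacaagtCTTTCCTTTTCCTgtgggagca
Rpl37: caccaagaCCCgccggaagtagtttcctgg

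Counted from its first C, the longest run was 14 bases in Rpl13a, 13 in Rpl4 and 3 in Rpl37. Relative to the RefSeq start it began at 2, -17 and -27, so the runs of Rpl4 and Rpl37 lay wholly before that start. In GENCODE, Rpl37 starts at base 5116645, outside the window searched here. Rps3, called higher in WT P7 on the deposited scale (0.62, pairs 0.47 to 0.78), had a longest run of 5. Whether the run goes with a member's direction was not tested. A RefSeq start need not be the start used in these cells, and a missing run says only that these letters are not in this window.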

How the data were processed

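Each gene has 1 deposited value in each cell. The table is named as TPM, but its values were RPM: within a cell they were whole multiples of 1 step, the same for every gene (100.0% of values above 0 on average, lowest cell 99.99%, tolerance 0.001 RPM), so the deposited RPM values carry no gene length term, and reads were recovered by dividing by that step. Per the submitters' processing notes, STAR 2.3.0 and HTSeq 0.6.1 were used with the genome build mm10. Not given in the sources used here are the role of each, the gene annotation, strandedness and how multiply matching reads were handled. Per the labels' protocols, RNA of sorted cells was captured on the Fluidigm C1, spiked with ERCC and amplified with SMARTer reagents.

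The 84 ERCC rows and Rn45s were left out of 19642 rows. Levels, differences, the floor of 2, the size of 0.5 and the rescaling are described above. The design was written for TPM, and RPM was used in its place. 1 label among the KO cells notes that raw data are missing; its values were used. RefSeq (GRCm38.p6) matched 84 symbols directly and 2 through a synonym, and GENCODE M21 transcripts gave lengths and windows. Named genes were the 6 highest and 6 lowest differences per comparison with 1 sign in all pairs, the 5 highest and lowest members per kb, the paralogues, parents, X-linked, stalk, Rpsa, Rpl5 and Rpl11, and up to 3 highest and lowest of the other lists; others named were chosen after their values were seen, and 3 members are counted but not reported here one by one. The members and lists were chosen with earlier results of these data known. The code was tested on simulated data. Alternatives were 2 other pseudocounts, linear means, 4 scalings or thinnings, 3 level filters, equal weight per cell, subsets of members and leaving out each set. Python 3.11.15, numpy 2.4.6, pandas 2.3.3 and scipy 1.17.1 were used.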

Additional observations from a re-analysis of the deposited data

How the results depend on the processing

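In KO P3 against WT P3 the members' median of 0.18 turned to -0.11 when values were scaled to the reads on genes, to those on genes other than the members, or after thinning every cell to 25000 gene reads; 80, 80 and 54 members then reached the floor, and the all-gene median was -0.10, -0.10 and -0.14. The 6 called higher became 1 with a pseudocount of 10, 1, 1 and 1 with these scalings and the rescaling, 2 after thinning and 3 of 30 with only the members at least 50% unique (added after the data were seen). The 0 called lower became 6, 6 and 1 with the scalings, 8 after thinning, and 1 with a floor of 0.5 or no filter. Leaving out a set gave 2 to 13 higher, 0 to 1 lower and a median of 0.11 to 0.33. The share difference of 0.040 points ran from -0.0115 without KO set C (-0.0105 without WT P3 set A) to 0.090. In WT P7 against WT P3 the median of 0.58 stayed positive: 0.62 and 0.11 with pseudocounts of 0.1 and 10, 0.51 with linear means, 0.096 and 0.1002 with the gene-read scalings, 0.16 rescaled, 0.12 thinned, 0.38, 0.74 and 0.30 with floors of 0.5, 4 and none, 0.54 with cells weighted equally, 0.61 without paralogues, 0.62 for the unique members, and 0.49 to 0.58 when a set was left out. The all-gene median of this comparison is given above for the deposited and rescaled values only. A positive sign under the other settings is therefore not set against all genes. The 28 called higher became 15 (pseudocount 10), 18, 18, 10 and 18 (scalings, rescaling, thinning), 17 of 22 (floor 4, 37.5% of all genes) and 16 of 30 (unique members), and 26 to 29 without a set. The 2 lower became 1, 13, 13, 5, 12 and 0 (floor 4), and 2 to 3. Shares over all genes for the rescaled values and without KO set A are given above. The other counts here, in both comparisons, are given without that share except at floor 4. They are therefore not read against the background. The share difference at P7 kept its direction and size, at 0.235 to 0.336 points when a set was left out. Of single genes, Rps2 in KO P3 (-0.062) and Rpl7l1 in WT P7 (-0.25) reversed after thinning; the cause was not tested for any of these. The floor leaves 37 and 35 members unread in the 2 comparisons. No paired analysis was possible because the labels name no animals and the letters of the sets are unexplained.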
